A study of Mus musculus with 4 samples.

Results

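The genes described here are 48 genes of the presynaptic terminal, chosen by symbol from a list covering synaptic vesicle proteins, SNARE proteins and their regulators, calcium sensors, and scaffolds of the active zone. All 48 were present among the 32681 genes of the deposited table, and all 48 passed the filter on low values. They were measured by RNA sequencing in primary neuron cultures prepared from the neocortex of wild-type CD-1 mice, an outbred strain, at embryonic day 13. A short hairpin RNA (shRNA) was transfected into each of 4 cultures: a control hairpin in 2 and a hairpin targeting DcpS in 2. DcpS is the scavenger decapping enzyme, which hydrolyses the cap structure that remains once an mRNA has been degraded from its 3′ end. All 4 cultures were kept in Neurobasal medium with B27 supplement, and the labels name no sorting of cells before total RNA was extracted. The sources used here give no hairpin sequence, and the labels do not tell whether cultures were prepared from different litters. The p-values therefore reflect the variation among these 4 samples alone, which may be of technical origin.

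Neurotransmitter is stored in synaptic vesicles, which dock at the active zone, a protein scaffold at the presynaptic membrane built from RIM, Munc13, ELKS, liprin, bassoon and piccolo proteins. Fusion is driven by the SNARE complex of synaptobrevin on the vesicle and syntaxin and SNAP-25 on the plasma membrane, and is triggered when calcium binds synaptotagmin. In embryonic cortical neurons many of these genes are transcribed before synapses are mature.

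The libraries held 17754768 to 21793685 reads, and a count of 0 allows up to 0.138 to 0.169 CPM (reads per 1000000), for counting error only. Levels are given as normalised read counts, which are reads divided by 1 scaling factor per library. Dcps itself read 499.8 and 506.6 in the controls against 114.5 and 119.6 with DcpS shRNA, 23.3% of the control mean. Neuron markers were abundant in every library: 8 of them summed to 85628 and 83901 normalised reads in the controls and to 82003 and 79592 with DcpS shRNA, 1 higher (Rbfox3) and 1 lower (Snap25, which is also described below). Markers of other cell types were read too. The 6 meningeal fibroblast markers were all lower and summed to 11103 and 12200 in the controls against 6742 and 6538 with DcpS shRNA. Of 6 astrocyte markers 3 were lower, with sums of 4917 and 5236 against 4170 and 4391. Of 6 endothelial and mural markers 2 were lower (Kdr and Pdgfrb), with sums of 630.0 and 690.2 against 419.8 and 390.0. Most of these reads were of Pdgfrb, 506.4 and 534.3 against 328.9 and 304.0. The markers Cldn5 (1.90 and 0 against 0.91 and 0) and Flt1 did not pass the filter on low values and were not tested. The 6 interneuron markers, of which 0 were called by limma, edgeR or DESeq2 and 1 had an unadjusted p under 0.05, summed to 261.3 and 270.7 against 239.0 and 241.4. The 5 radial glia markers summed higher, at 17604 and 16645 against 18969 and 18172, with 1 called higher (Nes) and 0 lower. The 5 oligodendrocyte lineage markers summed to 510.2 and 558.9 against 492.4 and 508.5, with Mbp higher and Pdgfra lower. The 5 excitatory neuron markers summed to 20853 and 19826 against 19063 and 19526, with Slc17a7 higher. Of 4 Cajal-Retzius markers (8023 and 7999 against 7841 and 7076) and 5 microglia markers (117.8 and 117.9 against 89.9 and 112.9) 0 were called by limma, edgeR or DESeq2, and 0 had an unadjusted p under 0.05. None of the markers in these lists was at 0 in every library, but P2ry12 and Cldn5 were at 0 in control 2 and DcpS shRNA 2. The microglia marker P2ry12 did not pass the filter, so 4 microglia markers were tested. The part of these changes in the results below was not tested, and in whole cultures fewer cells of a type and less RNA per cell cannot be told apart.

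With DcpS shRNA, presynaptic genes changed in both directions, by modest amounts. Synaptophysin (Syp), synapsins 1 and 2 (Syn1, Syn2), synaptobrevin 2 (Vamp2) and the ELKS scaffold Erc2 rose. Synaptogyrin 3 (Syngr3), SNAP-25 (Snap25), synaptotagmins 1 and 11 (Syt1, Syt11), Doc2b and Munc13-1 (Unc13a) fell. The other 37 genes did not pass the test, which was limma across all genes with a Benjamini-Hochberg adjusted p under 0.05. The rises ran from 14.1% (Vamp2) to 55.3% (Syp), and the lower changes from −33.2% (Doc2b) to −14.4% (Syt1). The 48 genes together summed to 73180 ± 376 normalised reads in the controls and 73597 ± 257 with DcpS shRNA (SD, n = 2 per group).

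Of the 48 genes, 5 were higher, beside 2.14% of all 18110 genes tested, and 6 were lower, beside 3.65%. In either direction 11 were called (22.9%), beside 5.79% of all genes tested. On the recovered reads edgeR called the same 11, beside 5.77% of all genes, and DESeq2 called 8 of them, beside 2.90%. Presynaptic genes were more abundant than most: their median level was 1235 normalised reads and that of all tested genes 353.1. Among genes with a mean of at least 50 normalised reads, 11 of 46 presynaptic genes (23.9%) and 7.54% of all genes were called. This floor left 13686 genes in and did not match the presynaptic genes to the others for level. The median log2 fold change was 0.05 over the 48 genes and 0.00 over all genes tested. In 36 of the 48 genes the 2 DcpS shRNA libraries lay both above or both below the 2 controls, as they did for 48.4% of all genes tested. Without control 2 the higher calls among the 48 genes numbered 3, a move of over 1.5 times. The lower calls ran from 4 to 8 over the libraries left out and did not move by that much. Counts of called SNARE, calcium sensor and active zone genes, and of all genes, also moved by over 1.5 times when a library was left out.

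**Figure D1:**
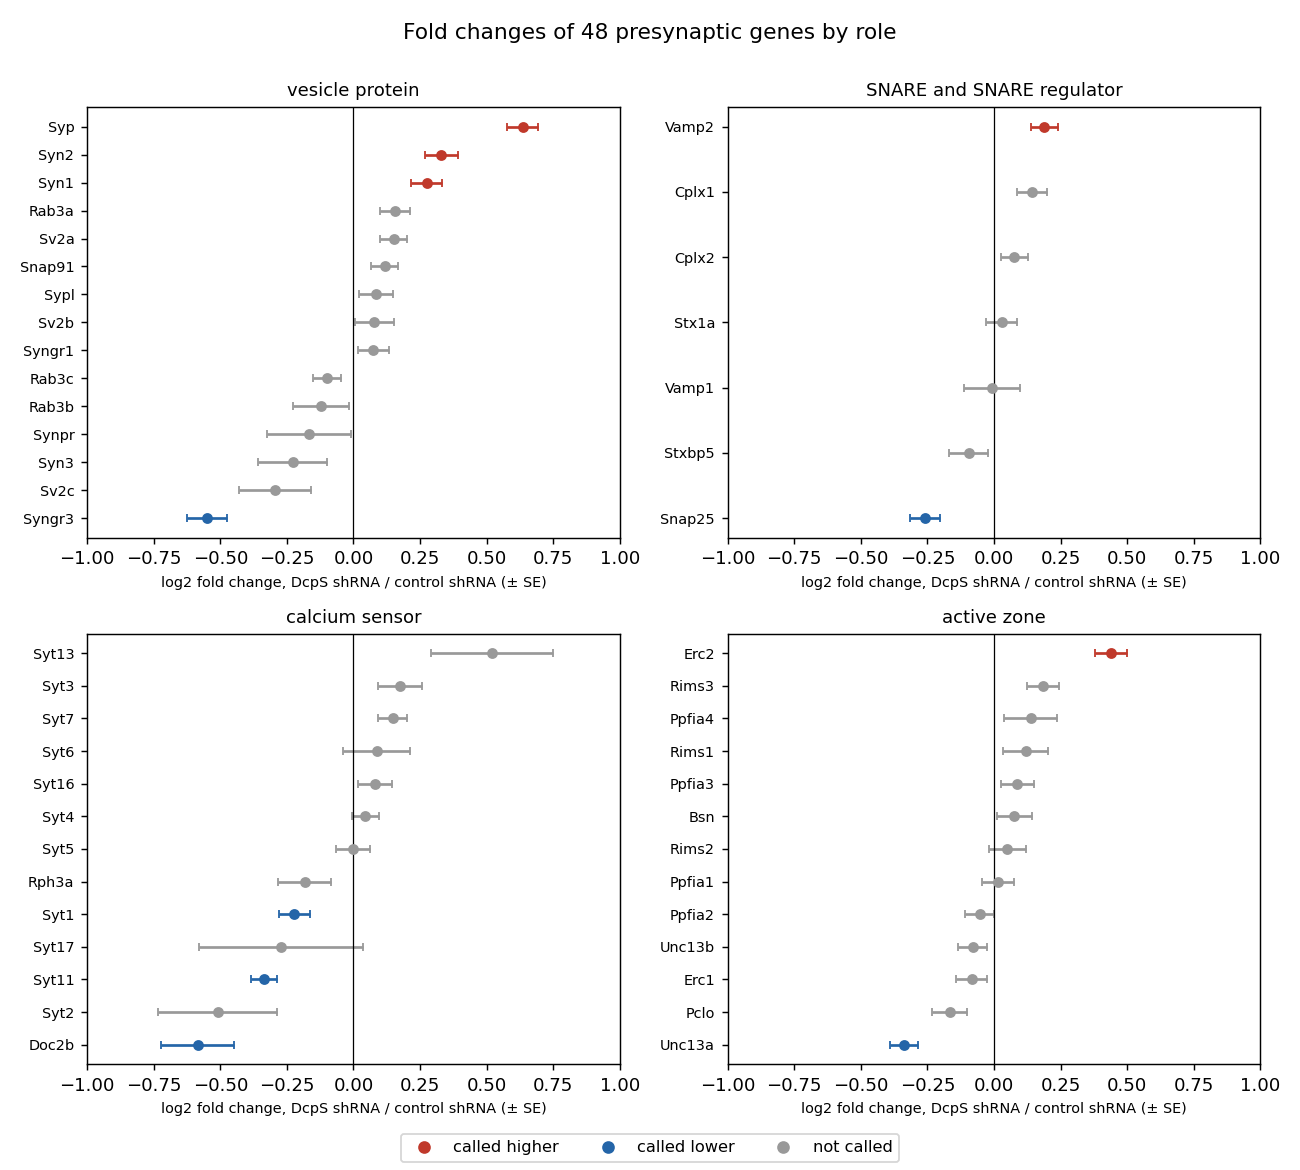
Log2 fold change (x axis, DcpS shRNA over control shRNA, on the log2(normalised read count + 1) scale) of each of the 48 genes, in 4 panels by role, with bars for the limma standard error. Red and blue points passed the test: 5 higher, led by Syp at 0.63, and 6 lower, led by Doc2b at −0.58, while the 37 grey points did not pass.

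Most of the presynaptic genes that fell, 4 of 6, held the same short sequence word. Every 7-base word of the annotated Dcps transcripts was looked up, on the sense strand, in the longest annotated 3′ untranslated region (3′ UTR) of each tested gene, leaving the 48 presynaptic genes out. Among words held by at least 1% of the 13641 genes scanned, ACGTGCA was the one most over-represented in genes that fell: it was in 136 of 638 lower genes (21.3%), 7 of 362 higher genes (1.93%) and 3.83% of all. The next was CACGTGC, in 134 of the lower and 15 of the higher genes and 5.51% of all, which overlaps the first by all but 1 base. The first word was then found in 7 of the 48 presynaptic genes (14.6%). Their 3′ UTRs are long, and among UTRs of at least 2000 bases the word was in 5 of 31 presynaptic genes (16.1%) and 7.85% of 4228 other genes. The sites are shown because 4 of the 6 genes that fell hold one, and to let each be compared with the site in the Dcps transcript. Each line gives 23 bases 5′ to 3′ with the word in capitals. The genome positions are all on the minus strand of GRCm38, and the Dcps site is read from its transcript.
Syngr3, chr17:24685093-24685115: aagactgtACGTGCAttgaccat
Syt1, chr10:108499554-108499576: tatataacACGTGCAacctggga
Syt11, chr3:88744721-88744743: cgccacacACGTGCAgaataaag
Unc13a, chr8:71628757-71628779: gaatatgaACGTGCAtttctgag
Unc13a, chr8:71628670-71628692: tgaatgtcACGTGCAgtgacagg
Unc13a, chr8:71625862-71625884: ctcagctaACGTGCActtaccag
Stxbp5, chr10:9759451-9759473: ctgtccttACGTGCAggcagggc
Stxbp5, chr10:9756475-9756497: tttctgttACGTGCAggaaatgg
Syt17, chr7:118381740-118381762: acatgtgcACGTGCAtacacaac
Ppfia4, chr1:134297013-134297035: ggggctctACGTGCAgtgaggaa
Dcps transcript: tcacctgcACGTGCAtttcacag

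Of the 7 presynaptic genes with the first word, 4 fell (Syngr3, Syt1, Syt11 and Unc13a), 0 rose and 3 did not pass (Stxbp5, Syt17 and Ppfia4). Their median log2 fold change was −0.27, which is the value of Syt17 alone (SE 0.31). Syt17 had the fewest reads of the 48 genes, a mean of 20.7, and the largest standard error. Of the 41 without the first word, 2 fell (Snap25 and Doc2b) and 5 rose, with a median of 0.08. Another 4 genes held only the second word: Syn2, which rose, and Syt7, Sv2b and Erc1, which did not pass. Outside the presynaptic list, 136 of 522 genes with the first word fell, with a median of −0.14, and 502 of 13119 without it, with a median of 0.01. This contrast was set by the choice of the word. Of 1332 words compared, it was the one most over-represented in these same lower genes. Genes outside the list with the word also had longer 3′ UTRs, at a median of 2708.5 bases against 1184 without it. A match is a description of the letters, and the part of the word in any change was not tested.

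**Figure D2:**
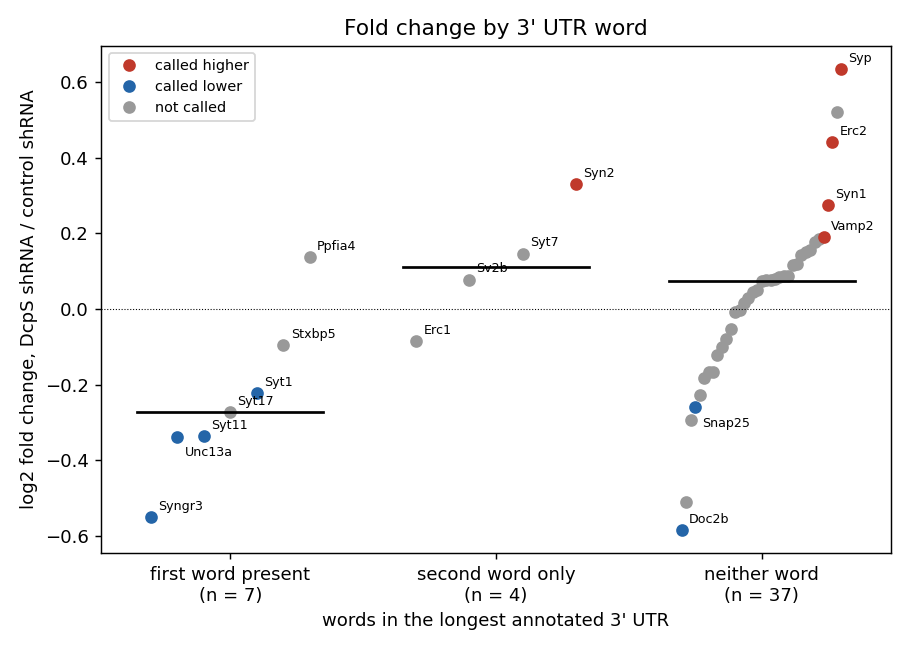
Log2 fold change (y axis) of the 48 genes, grouped by which of the 7-base words their longest 3′ UTR holds, with the median of each group as a black line. In the group with the first word 4 of 7 genes are blue (called lower) and none is red, and in the group with neither word 2 are blue and 4 red.

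Vesicle proteins were called in 4 of 15 cases, 3 higher and 1 lower, beside 5.79% of all genes tested called in either direction. Positions of called genes are given at first mention, on GRCm38 from GENCODE M21. Synaptophysin is an abundant integral membrane protein of the synaptic vesicle that binds synaptobrevin. Syp (chrX:7638471-7653256, plus strand) read 1082 and 1092 in the controls against 1669 and 1709 with DcpS shRNA. Both knockdown libraries stood far above both controls. Its log2 fold change was 0.63 (SE 0.06; limma, Benjamini-Hochberg adjusted p 4.77e-06). On the minus strand, the predicted gene Gm14703 overlaps 875 of the 5211 exon bases of Syp, at a mean of 12.7 normalised reads. Of the relatives of Syp, Sypl read 848.5 and 818.4 against 872.2 and 896.2, and Synpr 96.0 and 101.5 against 90.9 and 84.9, and neither passed.

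Synapsins are phosphoproteins that tether vesicles in the reserve pool. Syn1 (chrX:20860511-20921004, minus strand) read 1665 and 1544 in the controls against 1923 and 1958 with DcpS shRNA. Its groups did not overlap, and its log2 fold change was 0.27 (SE 0.06; limma, Benjamini-Hochberg adjusted p 0.00842). Without control 2 the Syn1 call ended (0.22; limma, Benjamini-Hochberg adjusted p 0.152, within 0.000457 to 0.152 over 14 alternatives). Syn2 (chr6:115134902-115282006, plus strand) read 928.3 and 975.3 against 1207 and 1186, a log2 fold change of 0.33 (SE 0.06; limma, Benjamini-Hochberg adjusted p 0.00337). The ratio of Syn1 to Syn2 reads stayed between 1.58 and 1.79 in all 4 libraries, with the groups overlapping. Syn3, the third synapsin, read 390.5 and 403.0 against 400.7 and 286.1. Its lowest value was DcpS shRNA 2. Exons of Timp3, a metalloproteinase inhibitor, overlap 1733 of its 12282 exon bases on the opposite strand, at a mean of 397.0 normalised reads. Syn3 passed when DcpS shRNA 1 was left out (−0.47; limma, Benjamini-Hochberg adjusted p 0.00648, the lowest of 0.00648 to 0.970 over 14 alternatives).

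Synaptogyrins are vesicle proteins related in topology to synaptophysin. Syngr3 (chr17:24685092-24689955, minus strand) read 677.5 and 669.7 in the controls against 468.8 and 450.4 with DcpS shRNA. The groups stood well apart, and the log2 fold change was −0.55 (SE 0.07; limma, Benjamini-Hochberg adjusted p 0.000255). Its 3′ UTR has the first word close to its end, and Syngr1, the other synaptogyrin on the list, has neither word. Syngr1 read 1289 and 1278 against 1371 and 1332 and did not pass. The ratio of Syp to Syngr3 reads, picked after their values were seen, went from 1.60 and 1.63 in the controls to 3.56 and 3.79 with DcpS shRNA. With 2 against 2 an exact two-sided permutation test cannot give a p below 0.333, the value this ratio has.

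Other vesicle genes did not pass. Rab3a, the small GTPase that marks vesicles for docking, had the highest level per kilobase among the uncalled vesicle genes. It read 2422 and 2258 in the controls against 2535 and 2675 with DcpS shRNA, a log2 fold change of 0.16 (SE 0.06). It passed when DcpS shRNA 1 was left out (0.19; limma, Benjamini-Hochberg adjusted p 0.0323, the lowest of 0.0323 to 0.660 over 14 alternatives). Sv2c, one of the vesicle glycoproteins that bind synaptotagmin, had the largest uncalled change: 169.1 and 147.7 against 129.0 and 128.5, or −0.29 (SE 0.14). Its paralogue Sv2a read 2535 and 2628 against 2869 and 2861, both higher, without passing (limma, Benjamini-Hochberg adjusted p 0.116). Log2 fold changes of the 11 uncalled vesicle genes ran from −0.29 to 0.16, and the adjusted p of Sv2a was the lowest among them. Summed over all 15, vesicle genes read 18805 and 18588 in the controls against 20283 and 20287 with DcpS shRNA.

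**Figure D3:**
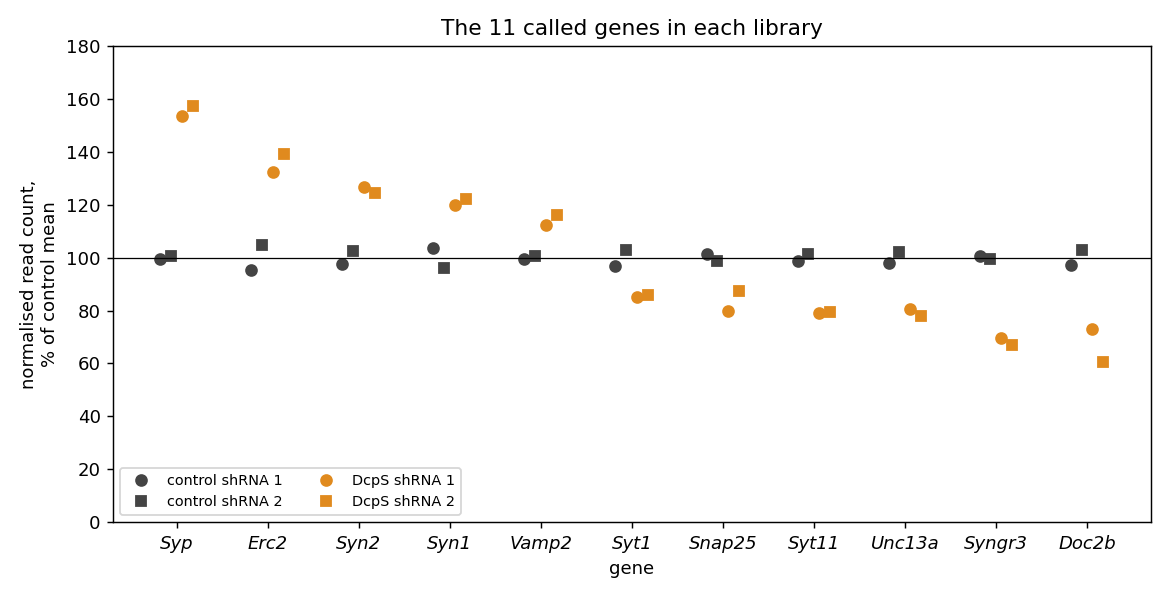
Normalised read count of the 11 called genes in each library (y axis, as a percent of that gene's control mean), with circles for replicate 1 and squares for replicate 2, grey for control and orange for DcpS shRNA. No orange point lies between or among the grey points of its gene, and the widest gaps are those of Syp, Syngr3, Erc2 and Doc2b.

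The 3 core SNAREs of vesicle fusion did not move together. Vamp2 (chr11:69088490-69092384, plus strand), the vesicle SNARE synaptobrevin 2, read 3644 and 3678 in the controls against 4106 and 4245 with DcpS shRNA, a log2 fold change of 0.19 (SE 0.05; limma, Benjamini-Hochberg adjusted p 0.0379). Snap25 (chr2:136713453-136782428, plus strand), the plasma membrane SNARE that contributes a pair of helices to the complex, read 3808 and 3718 against 3005 and 3292, or −0.26 (SE 0.06; limma, Benjamini-Hochberg adjusted p 0.0108). Stx1a, syntaxin 1A, read 1093 and 1118 against 1125 and 1130, or 0.03 (SE 0.06), and did not pass. The groups did not overlap for Vamp2 or Snap25. Vamp2 reads per Snap25 read were 0.957 and 0.989 in the controls against 1.37 and 1.29 with DcpS shRNA, a ratio also picked after its values were seen (exact permutation p 0.333, the smallest possible).

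Both SNARE calls were fragile. Vamp2 lost its call without control 1 (limma, Benjamini-Hochberg adjusted p 0.286), without control 2 (0.245) and with DESeq2 (0.0930), within 0.00535 to 0.286 over 14 alternatives. Snap25 lost its call without control 1 (limma, Benjamini-Hochberg adjusted p 0.102, within 8.52e-05 to 0.102). With these losses 0 of the 7 genes of the class were called without control 1, and 1 without control 2 or with DESeq2. The directions of Vamp2 and Snap25 held in all 14 alternatives. Cplx1, complexin 1, which clamps and activates the assembled SNARE complex, was the uncalled gene of this class with both the highest level per kilobase and the largest change. It read 1556 and 1608 against 1723 and 1771, or 0.14 (SE 0.06; limma, Benjamini-Hochberg adjusted p 0.167). Cplx2, Vamp1 and Stxbp5 (tomosyn, which competes for syntaxin) lay between −0.09 and 0.08. Stxbp5 holds the first word at 2 sites and read 866.6 and 849.1 against 857.7 and 752.1.

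Calcium sensors and related C2 domain proteins were called in 3 of 13 cases, all lower, beside 3.65% of all genes tested called lower. The median log2 fold change of the class was −0.002, with 6 genes above 0 and 7 below. Syt11 (chr3:88744700-88775164, minus strand), a synaptotagmin that does not bind calcium, was the most abundant of the 48 genes by reads. It read 6610 and 6782 in the controls against 5291 and 5311 with DcpS shRNA. The knockdown pair agreed closely and stood below both controls, with a log2 fold change of −0.34 (SE 0.05; limma, Benjamini-Hochberg adjusted p 0.000540). Syt1 (chr10:108497650-109010982, minus strand), the main sensor for fast synchronous release, read 1512 and 1605 against 1329 and 1340, or −0.22 (SE 0.06; limma, Benjamini-Hochberg adjusted p 0.0316). The Syt1 groups did not overlap, but the call was lost without control 1 (limma, Benjamini-Hochberg adjusted p 0.0563), without control 2 (0.318) and with DESeq2 (0.202), within 0.00927 to 0.318 over 14 alternatives. Both genes hold the first word, and in both it is preceded by the C that completes the second.

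Doc2b (chr11:75768966-75796049, minus strand) encodes a high-affinity calcium sensor linked to spontaneous and asynchronous release. It read 175.8 and 185.6 in the controls against 131.7 and 109.5 with DcpS shRNA, the lowest level of any called gene. Its log2 fold change was −0.58 (SE 0.14; limma, Benjamini-Hochberg adjusted p 0.0183), and its 3′ UTR holds neither word. The Doc2b call was lost without control 2 (limma, Benjamini-Hochberg adjusted p 0.0983), without DcpS shRNA 2 (0.0898) and with DESeq2 (0.228), within 0.00111 to 0.228 over 14 alternatives. Without control 2, or with DESeq2, Syt11 was the 1 gene of the class still called.

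Syt4, a synaptotagmin of dense-core and postsynaptic vesicles, was the most abundant of the 48 genes per kilobase of exon. It read 4995 and 4965 in the controls against 5012 and 5263 with DcpS shRNA, or 0.04 (SE 0.05). Reads of Syt11 per Syt4 read went from 1.32 and 1.37 to 1.06 and 1.01. Syt7, the slow high-affinity sensor, read 2040 and 2062 against 2315 and 2227, without passing (0.15, SE 0.05; limma, Benjamini-Hochberg adjusted p 0.138). Syt13 had the largest uncalled change but few reads, 38.0 and 33.8 against 45.4 and 59.2 (0.52, SE 0.23). Syt2, a fast sensor of hindbrain and inhibitory terminals, read 59.9 and 58.5 against 49.1 and 34.6 (−0.51, SE 0.22), and Syt17 read 21.9 and 23.6 against 17.3 and 20.1. The 10 uncalled genes of the class ran from −0.51 to 0.52, and that of Syt7 was the lowest adjusted p among them.

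Active zone genes were called in 2 of 13 cases, 1 in each direction, and in 4 without DcpS shRNA 1, when Rims3 and Pclo also passed. With all 4 libraries, 5.79% of all genes tested were called. Unc13a (chr8:71624417-71671757, minus strand) encodes Munc13-1, the priming factor that opens syntaxin. It read 3390 and 3543 in the controls against 2789 and 2698 with DcpS shRNA. Both knockdown libraries lay below both controls, with a log2 fold change of −0.34 (SE 0.05; limma, Benjamini-Hochberg adjusted p 0.000926). Its 3′ UTR holds the first word at 3 sites, and 495 of its 12623 exon bases overlap Colgalt1 on the opposite strand, at a mean of 1144 normalised reads. The paralogue Unc13b, Munc13-2, holds neither word and read 2178 and 2124 against 2099 and 1972, without passing (−0.08, SE 0.06). Unc13a reads per Unc13b read were 1.56 and 1.67 in the controls against 1.33 and 1.37 with DcpS shRNA (exact permutation p 0.333, the smallest possible).

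Erc2 (chr14:27622428-28478537, plus strand) encodes CAST, the brain ELKS protein that links RIM to the scaffold. It read 1434 and 1576 in the controls against 1990 and 2093 with DcpS shRNA, a log2 fold change of 0.44 (SE 0.06; limma, Benjamini-Hochberg adjusted p 0.000276). The groups stood apart by more than the spread of either. Its broadly expressed paralogue Erc1 read 2107 and 1951 against 1932 and 1894, or −0.08 (SE 0.06), and did not pass. Erc1 was thus the more abundant by reads in both controls, where Erc2 reads per Erc1 read were 0.680 and 0.808. The ratio was 1.03 and 1.11 with DcpS shRNA (exact permutation p 0.333, the smallest possible). Per kilobase of exon, Erc2 was already the higher in the controls, at a mean of 154.7 against 124.7 for Erc1. This order depends on the annotation, as the length counts every annotated exon: 9728 bases for Erc2 and 16271 for Erc1.

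The remaining scaffold genes stayed within −0.17 to 0.18 on the log2 scale. Rims3, a short RIM isoform gene, led the uncalled genes of the class in both level per kilobase and change: 1611 and 1759 against 1850 and 1980, or 0.18 (SE 0.06; limma, Benjamini-Hochberg adjusted p 0.0940). It passed without DcpS shRNA 1 (limma, Benjamini-Hochberg adjusted p 0.0181, the lowest of 0.0181 to 0.559 over 14 alternatives). Rims1, which tethers vesicles through Rab3, read 410.5 and 426.6 against 441.6 and 468.2, and Rims2 741.1 and 694.3 against 755.9 and 729.7. The 2 giant scaffolds differed in which library stood out. Bassoon, Bsn, read 2057 and 2021 against 2329 and 1987, and passed as higher without DcpS shRNA 2 (limma, Benjamini-Hochberg adjusted p 0.0425, the lowest of 0.0425 to 0.931). Piccolo, Pclo, read 1830 and 2026 against 1809 and 1627, and passed as lower without DcpS shRNA 1 (limma, Benjamini-Hochberg adjusted p 0.0161, the lowest of 0.0161 to 0.724). The liprins Ppfia1 to Ppfia4, adaptors of the active zone, ran from −0.05 to 0.14, and 0 of 4 passed limma, edgeR or DESeq2 or had an unadjusted p under 0.05.

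Per kilobase of exon, the order of the 48 genes was led by Syt4 (1300 normalised reads per kilobase over the 4 libraries), Syt11 (1153), Rab3a (1111) and Vamp2 (1029). It ended with Synpr (9.89), Syt2 (6.61) and Syt17 (3.98). The length counts every annotated exon of a gene, in use in these cultures or not, so the order depends on the annotation. Some neighbours in this order changed place between groups. Syt11 had 1286 normalised reads per kilobase in the controls against 1279 for Syt4, and 1019 against 1320 with DcpS shRNA. Syp and Syngr3 also traded places, at 208.6 and 325.2 in the controls against 324.1 and 221.9 with DcpS shRNA.

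**Figure D4:**
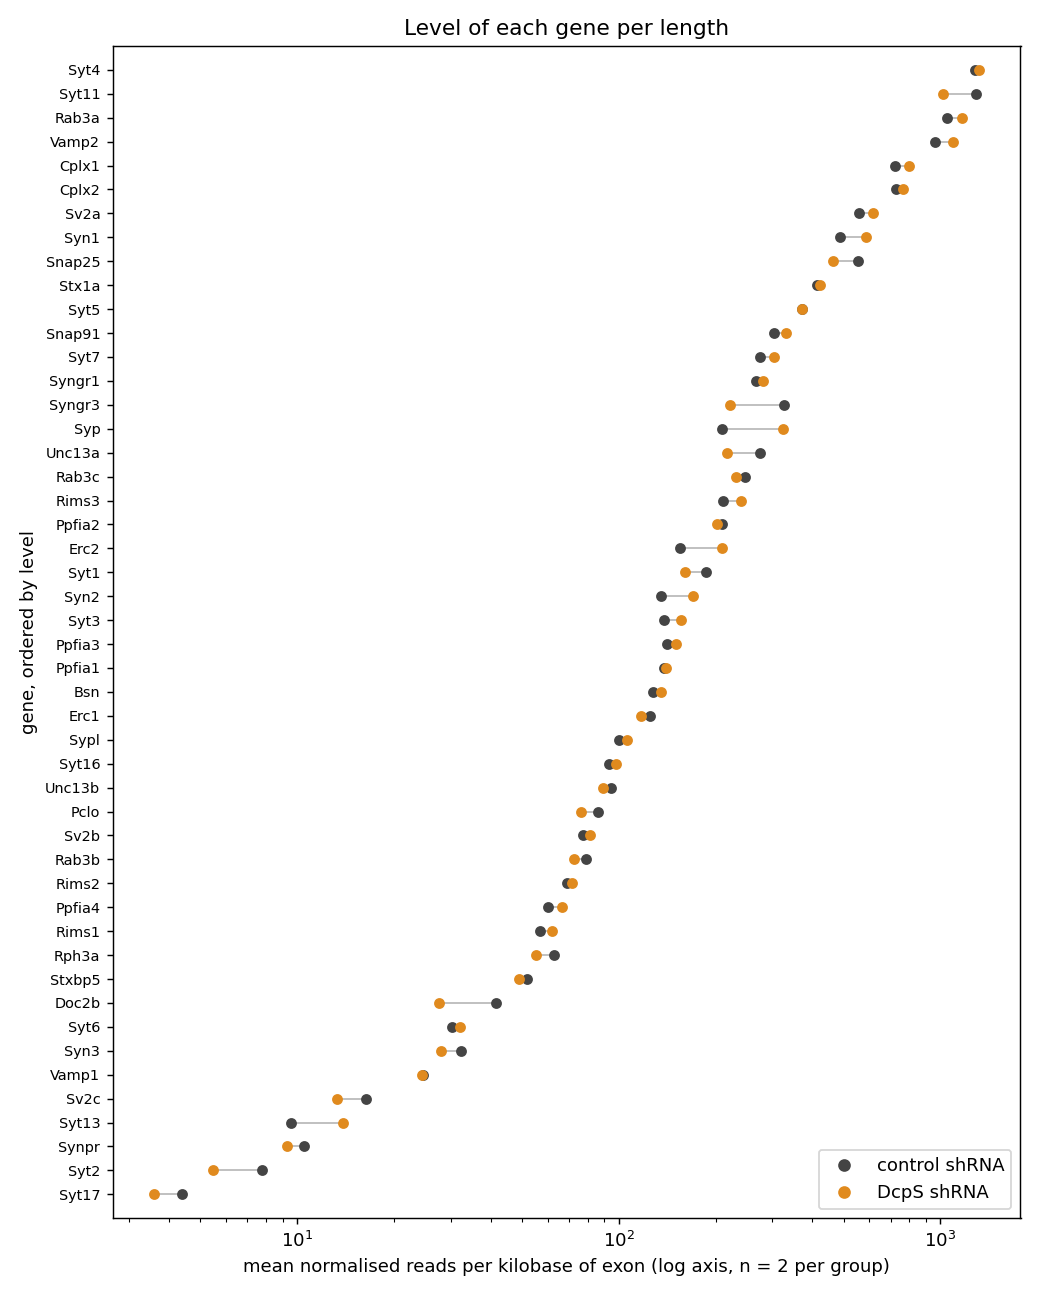
Mean normalised reads per kilobase of exon (x axis, log scale) of each of the 48 genes in order of level, grey for control and orange for DcpS shRNA (means of n = 2 per group, no error bars). Levels span from 3.98 for Syt17 to 1300 for Syt4, and long grey links mark Syp, Syngr3, Erc2, Doc2b, Syt13 and Syt2, of which the last 2 did not pass.

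Of 72 further presynaptic genes on a second list, 69 were tested, 4 were higher and 2 lower. This is 8.70%, beside 5.79% of all genes, with a median log2 fold change of 0.01. The adaptor Lin7c, of the Cask and Mint complex, read 3860 and 3729 in the controls against 5014 and 5284 with DcpS shRNA (0.44, SE 0.05). The vesicular glutamate transporter Slc17a7 read 827.6 and 878.9 against 1201 and 1253 (0.52, SE 0.06), and beta-synuclein, Sncb, 541.6 and 570.2 against 799.5 and 786.7 (0.51, SE 0.07). In the SNARE machinery, Stxbp6 rose (0.28, SE 0.07) and Stxbp4 (−0.48, SE 0.10) and the SNAP protein gene Napg (−0.22, SE 0.06) fell, 3 of 20 tested. Calls were lost for Stxbp4 without DcpS shRNA 2 (limma, Benjamini-Hochberg adjusted p 0.0559, within 1.27e-05 to 0.0626 over the alternatives) and for Stxbp6 without control 2 (0.223, within 0.00451 to 0.223). The Napg call rested on 3 libraries, with adjusted p-values (limma, Benjamini-Hochberg) of 0.182 when control 1 was left out, 0.175 for control 2 and 0.0551 for DcpS shRNA 2, within 0.0159 to 0.280. DESeq2 called none of these 3, and without an expression filter Napg stood at 0.0502. Of the 10 tested genes of calcium sensing and priming, 0 were called by limma, edgeR or DESeq2, and 0 had an unadjusted p under 0.05.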

How the data were processed

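The deposited table holds 1 column per library and 32681 genes by symbol. They are a scaled signal as deposited, not raw counts: dividing each column by its smallest positive value gave whole reads for 100% of values (tolerance 0.001), and the implied factors equalled median-of-ratios size factors. The submitters' processing notes name HISAT2 2.2.0, SAMtools 1.3.1, Picard, featureCounts, DESeq2 and the build GRCm38; the sources used here do not give the annotation, the use of strand or the treatment of multi-mapping reads.

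Values were tested as log2(value + 1) with limma 3.58.1 (intensity trend, robust, two-sided, Benjamini-Hochberg over 18110 genes that passed edgeR's filterByExpr at a minimum count of 10), so fold changes of low genes are understated. Alternatives used TMM or library-total scaling, edgeR 4.0.16 and DESeq2 1.42.0 on recovered reads, pseudocounts of 0.5 and 5, other filters, a replicate block, and each library left out. edgeR called 1045 genes. The limma step was checked on simulated reads with known changes. Libraries of a group differed by more than sampling noise (chi-square per degree of freedom 2.15 and 4.03). Exon lengths, positions and 3′ UTRs come from GENCODE M21 (GRCm38). The exon length of a gene is the union of the exons of all its annotated transcripts. Members, lists, words and tests were chosen with earlier results of these data known. Values in every library are given for called genes and, in each role class, the uncalled gene with the highest level per kilobase and with the largest change; others named were chosen after their values were seen.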

Additional observations from a re-analysis of the deposited data

How the results depend on the processing

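All 11 called genes kept their direction in the 14 alternatives, and none of the 20 genes followed through them reversed among called values. The log2 fold changes of Bsn (−0.04 to 0.19) and Syn3 (−0.47 to 0.01), not called in the main test, did not keep their sign throughout. The same 11 genes were called with TMM or library-total scaling, edgeR, pseudocounts of 0.5 and 5 and both filters. DESeq2 called 8 of them, with 1 SNARE gene, 1 calcium sensor, 3 of the further presynaptic genes and 415 genes in all. The titles give each library a set number, 1 or 2, in both groups, and do not say what a set is. Deviations of same-numbered libraries correlated at 0.02 over 9055 genes. With 2 libraries per group the crossed pairs give the same value with its sign changed, −0.02. This cannot tell whether libraries of a set shared a preparation. With that number as a replicate block, limma called the 11 genes and Rims3 (adjusted p 0.0353), 10 further presynaptic genes and 1626 genes in all, and edgeR with the block called the 11. Leaving out 1 library at a time gave 3 to 7 higher and 4 to 8 lower calls. By class it gave 3 to 6 vesicle, 0 to 2 SNARE, 1 to 3 calcium sensor and 2 to 4 active zone calls, with 5 to 9 further presynaptic genes and 594 to 1439 genes in all. Where a library left a group with 1 sample, that sample was assumed to vary like the others. The cause of these differences was not tested. The largest standard errors were those of Syt17, Syt13 and Syt2, 0.31, 0.23 and 0.22 on the log2 scale, which are also the 3 genes with the fewest reads; the part of depth in these errors was not tested.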
